A study of Homo sapiens with 6 samples.

Results

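The DEAD and DEAH box RNA helicases were taken as all genes of the deposited table whose symbol is DDX with a number and at most 1 of the letters A, B or X, or DHX with a number. The rule found 49 of 16362 genes, 33 named DDX and 16 named DHX, and used no measured value. Expression was read in 3 libraries of cells treated for 24 h with CTI-2, a compound that the labels give by this code name without a dose, against 3 libraries of control cells for which the labels give no agent. The labels name the cells of all 6 as MDA-MB-231, which is a line from a human breast cancer of the triple-negative kind, and the libraries are Oxford Nanopore cDNA made from total RNA. Nothing in the labels ties the libraries to separate cultures, and p-values measure only the spread between these libraries, which may be technical.

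RNA helicases of these families use ATP to unwind short duplexes or to strip proteins from RNA, and are named for the letters of a conserved ATPase motif. DEAD box proteins mostly open local duplexes and act as clamps, whereas DEAH box proteins move along a strand and drive the large rearrangements of the spliceosome. Together they accompany an RNA through transcription, splicing, export, ribosome assembly, translation and decay, and most are expressed in every dividing cell.

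The libraries held 2208261 to 3153469 counts after CTI-2 and 2349758 to 3929532 counts in controls, so that 3 counts correspond to 0.951 to 1.36 CPM (counts scaled to a library total of 1000000) after CTI-2 and to 0.763 to 1.28 CPM in controls. Control 2 stood apart from the other controls on principal component 1, where it was the control closest to the treated libraries (-15.5, -13.7 and -25.1 in CTI-2 libraries 1 to 3, against 23.1, 8.16 and 23.1 in controls 1 to 3; 43.4% of the variance), so results that change without it are given both ways. Leaving it out also raised the share of all tested genes called, given below, and a call gained without it is to be read beside that share. Of 8 markers described as low or absent in MDA-MB-231, 7 had a count, with a summed level of 269.9 to 339 CPM after CTI-2 and 360 to 634 CPM in controls. The defining PGR had no entry among the deposited genes, so its level was not read. CDH1, ESR1 and GATA3 averaged at most 0.483 CPM in either group. ERBB2 averaged 8.54 CPM after CTI-2 and 10.06 CPM in controls, and EPCAM 7.51 CPM after CTI-2 and 10.02 CPM in controls. FOXA1 averaged 1.58 CPM after CTI-2 and 2.09 CPM in controls. CDKN2A, described as deleted in this line, nonetheless had 289 ± 33.2 CPM after CTI-2 and 464 ± 139 CPM in controls (SD, n = 3 each), and the mesenchymal marker VIM 15.7 ± 1.16 CPM after CTI-2 and 18.7 ± 0.320 CPM in controls. All 10 markers described as present in the line had counts, with a summed level of 1934 to 2035 CPM after CTI-2 and 1915 to 2004 CPM in controls. The name of the line therefore rests on the labels. Some genes that cultured cells ordinarily express strongly had few counts in every library, among them, chosen after their values were seen, GAPDH with 60.5 to 76.9 CPM, TUBA1B with 1.01 to 2.55 CPM and EIF4A1 with 0 to 1.01 CPM. Levels, that of VIM included, are therefore compared between groups and not between genes.

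After CTI-2, DDX17 was 1.99-fold lower, in all 3 libraries, while 4 helicase genes rose by 1.35- to 1.38-fold: DDX39A and DDX39B, a related pair that package mRNA for export, and DDX27 and DDX10, which act in the nucleolus on ribosomal RNA. The closest relative of DDX17, DDX5, was not called. Of the 46 helicase genes with enough counts to be tested, 5 had an adjusted p under 0.05 with the quasi-likelihood test of edgeR (10.9%, against 8.03% of all 9848 tested genes), 4 of them higher (8.70%, against 3.39%) and 1 lower (2.17%, against 4.64%). The 46 log2 fold changes, CTI-2 minus control, had a median of -0.03, against -0.01 for all tested genes, with 22 positive and 24 negative values. The share called was near that of all genes, and what follows is given gene by gene. In 15 of the 46 (32.6%, against 28.8% of all tested genes) the CPM of the groups did not overlap, 8 with all CTI-2 libraries higher (13.2% of all tested genes) and 7 with all lower (15.6%).

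**Figure D1:**
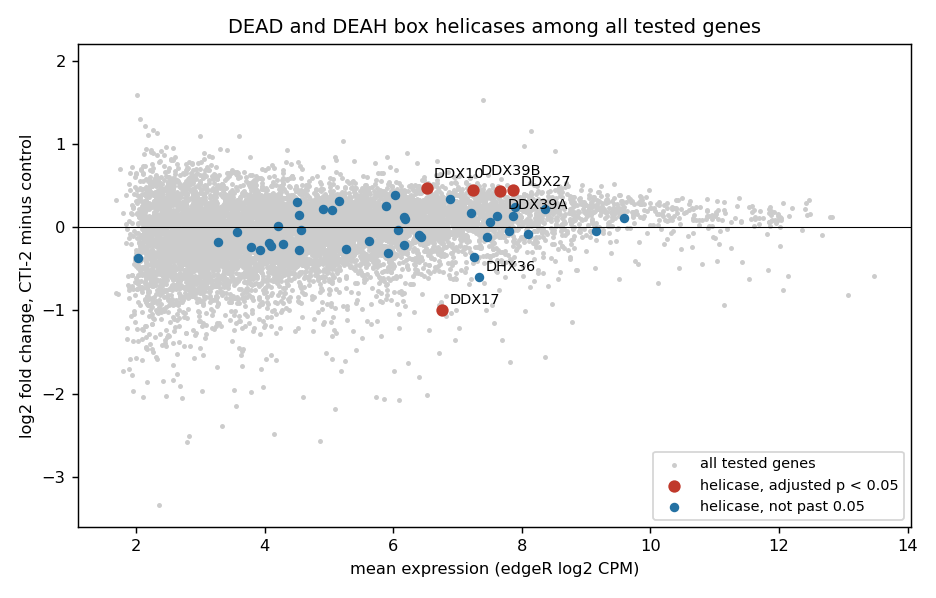
Log2 fold change (CTI-2 minus control) against mean expression (edgeR log2 CPM) for all 9848 tested genes (grey) and the 46 tested helicase genes (red where the adjusted p is under 0.05, otherwise blue). DDX17 lies at -0.99 and the 4 red points above 0 lie between 0.44 and 0.46.

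Summed over the 49 genes, the level of the helicases differed between groups by less than the spread between libraries. The sum was 5550.4, 5442 and 5646 CPM in CTI-2 libraries 1 to 3 and 5650.2, 5140.3 and 5848 CPM in controls 1 to 3, a mean of 5546 ± 102 CPM after CTI-2 and 5546 ± 365 CPM in controls (SD, n = 3 each; two-sided exact permutation p = 1, where 3 against 3 libraries cannot go below 0.1). The lowest sum was that of control 2, and the groups overlapped.

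Promoter windows are printed for 2 related pairs, because DDX17 fell while its relative DDX5 was not called, whereas DDX39A and DDX39B rose together. They are RefSeq sequences on GRCh38.p14, from 250 bases before to 50 bases after the RefSeq start (which is not the GENCODE start for DDX17, DDX5 and DDX39B), 5′ to 3′ on the gene's strand. The windows are chr22:38506262-38506561 for DDX17, chr17:64506589-64506888 for DDX5, chr19:14419334-14419633 for DDX39A and chr6:31541954-31542253 for DDX39B, all on the minus strand. Capitals mark matches, on either strand, to 7 motifs. These were GGGCGG, known as the SP box, the letters CCAAT, the E-box CACGTG, the core CGGAAG of ETS factors, the part TGACGT of the cAMP response element, the TATA box as TATAAA, and the YY1 core as AANATGGC. The E-box and cAMP motifs share letters and could overlap.
DDX17: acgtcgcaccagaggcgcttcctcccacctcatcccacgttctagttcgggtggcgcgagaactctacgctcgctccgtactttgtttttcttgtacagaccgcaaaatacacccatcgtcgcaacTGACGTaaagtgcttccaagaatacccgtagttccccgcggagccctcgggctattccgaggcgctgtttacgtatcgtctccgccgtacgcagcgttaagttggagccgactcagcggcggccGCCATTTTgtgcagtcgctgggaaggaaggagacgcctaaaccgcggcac
DDX5: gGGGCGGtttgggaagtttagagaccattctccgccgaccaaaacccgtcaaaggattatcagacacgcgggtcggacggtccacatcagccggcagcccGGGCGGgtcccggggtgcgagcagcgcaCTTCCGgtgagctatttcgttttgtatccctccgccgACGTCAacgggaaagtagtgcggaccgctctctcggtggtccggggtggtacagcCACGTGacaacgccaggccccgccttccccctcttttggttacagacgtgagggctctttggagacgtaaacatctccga
DDX39A: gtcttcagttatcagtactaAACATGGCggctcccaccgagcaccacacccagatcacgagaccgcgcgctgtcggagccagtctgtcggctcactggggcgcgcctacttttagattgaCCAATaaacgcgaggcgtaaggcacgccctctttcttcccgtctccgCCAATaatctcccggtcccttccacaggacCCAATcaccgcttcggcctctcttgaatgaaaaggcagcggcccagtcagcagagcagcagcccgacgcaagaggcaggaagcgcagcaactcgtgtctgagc
DDX39B: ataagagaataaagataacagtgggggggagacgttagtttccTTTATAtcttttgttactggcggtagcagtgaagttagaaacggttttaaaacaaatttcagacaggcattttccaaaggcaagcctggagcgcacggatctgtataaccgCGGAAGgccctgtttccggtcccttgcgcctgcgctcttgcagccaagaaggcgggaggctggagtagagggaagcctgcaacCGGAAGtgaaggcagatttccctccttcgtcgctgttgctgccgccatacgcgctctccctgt
The pairs did not share an arrangement of these motifs. DDX17 held 1 TGACGT and, at its start, 1 GCCATTTT, the reverse of the YY1 core, and no GGGCGG, while DDX5 held 2 GGGCGG, 1 CACGTG, 1 CTTCCG and 1 ACGTCA. DDX39A held 3 CCAAT and 1 AACATGGC, and DDX39B held 2 CGGAAG and 1 TTTATA. Windows were found for 43 of the 49 helicase genes. Of these 26 held CGGAAG or its reverse (60.5%, against 19.9% of 27305 windows of all genes, noncoding genes included), and 25 held GGGCGG (58.1%, against 44.6%). Matches of letters are descriptions and say nothing of binding.

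The transcriptional co-regulators hold the clearest change. DDX17 (ENSG00000100201, chromosome 22, minus strand) encodes a co-activator and splicing regulator that pairs with DDX5. It had 68.2, 66.4 and 77.4 CPM in CTI-2 libraries 1 to 3, against 173, 113 and 154 CPM in controls 1 to 3. Every CTI-2 library was below every control, with control 2 the lowest control. The means were 70.7 ± 5.93 CPM after CTI-2 and 147 ± 30.9 CPM in controls (SD, n = 3 each; log2 fold change -0.99 with SE 0.13; edgeR adjusted p = 2.6e-06). DDX17 passed in each of 20 alternative settings, with log2 fold changes of -1.12 to -0.88 and an adjusted p of at most 0.00039. It overlaps KDELR3 on the opposite strand, which had a log2 fold change of -0.09 and an adjusted p of 0.808; no source used here says whether counting was by strand. In bulk RNA, fewer cells expressing a gene and less RNA per cell cannot be told apart. Its annotated transcript has 4791 bases and a GC content of 45.2%, where all called lower genes had medians of 3213 bases and 54.9%. All tested genes had medians of 3368 bases and 48.2%.

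DDX5, which encodes a co-activator of similar build, had 740.5, 779 and 825 CPM in CTI-2 libraries 1 to 3, against 760.3, 676 and 814 CPM in controls 1 to 3. The groups overlapped, and the log2 fold change was 0.11 with an SE of 0.11 (edgeR adjusted p = 0.564). The DDX17 to DDX5 ratio of read counts was 0.0921, 0.0852 and 0.0939 in CTI-2 libraries 1 to 3, against 0.228, 0.167 and 0.189 in controls 1 to 3. All CTI-2 ratios were lower than all control ratios (0.0904 ± 0.00457 after CTI-2 and 0.194 ± 0.0310 in controls, SD, n = 3 each; exact permutation p = 0.1, two-sided and as small as 3 against 3 allows). A ratio within a library shows that the 2 genes changed unequally. The scaling of libraries drops out of it.

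**Figure D2:**
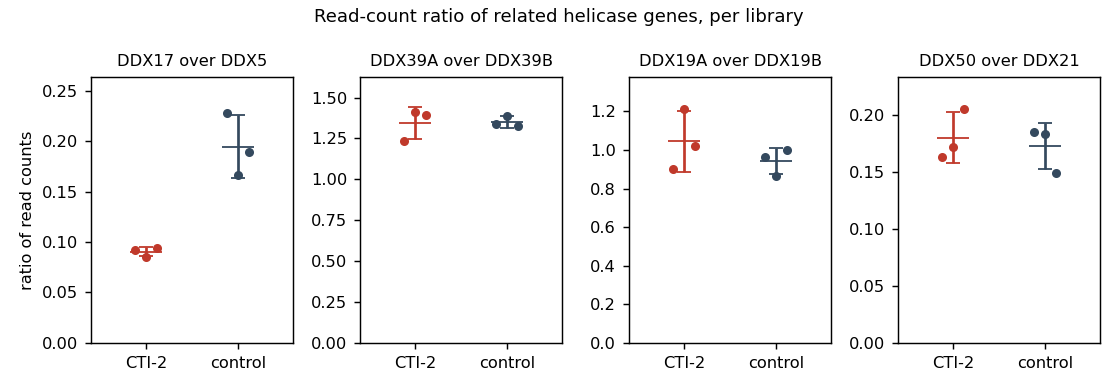
Ratio of read counts of 4 pairs of related helicase genes in each library (points, libraries 1 to 3 from left to right; line and bar, mean and SD), CTI-2 left and control right. The DDX17 to DDX5 ratio lies at 0.0852 to 0.0939 after CTI-2 and at 0.167 to 0.228 in controls, and the other 3 pairs overlap between groups.

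The other co-regulators were not called. DHX9, the nuclear helicase that unwinds double-stranded RNA and bridges transcription factors to the polymerase, averaged 259 ± 6.65 CPM after CTI-2 and 286 ± 16.0 CPM in controls (SD, n = 3 each; log2 fold change -0.09, edgeR adjusted p = 0.659), without overlap. DDX1, a member of the tRNA ligase complex, had 239, 251 and 263 CPM in CTI-2 libraries 1 to 3, against 221, 215 and 226 CPM in controls 1 to 3 (log2 fold change 0.24, edgeR adjusted p = 0.162). Its groups did not overlap, and without control 2, its lowest control, it passed (adjusted p = 0.044). DDX20, a subunit of the SMN complex that loads small nuclear RNPs, was at 0.21 on the log2 scale (edgeR adjusted p = 0.438).

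Both mRNA export helicases that join the TREX complex rose. DDX39A (ENSG00000123136, on the minus strand of chromosome 19, 14408819 to 14419383 by the GRCh38 annotation GENCODE 29) had 225, 222 and 237 CPM in CTI-2 libraries 1 to 3, against 193, 158 and 173 CPM in controls 1 to 3. The log2 fold change was 0.44 with an SE of 0.11 (228 ± 7.91 CPM after CTI-2 and 175 ± 17.6 CPM in controls, SD, n = 3 each; edgeR adjusted p = 0.0086). DDX39B (ENSG00000198563, chromosome 6, 31530219 to 31542448, minus strand), which encodes the spliceosome and export factor UAP56, had 182, 157 and 170.3 CPM in CTI-2 libraries 1 to 3, against 144, 113 and 131 CPM in controls 1 to 3. Its log2 fold change was 0.45 with an SE of 0.11 (170.0 ± 12.5 CPM after CTI-2 and 129.5 ± 15.5 CPM in controls; edgeR adjusted p = 0.0090). In both genes every CTI-2 library was above every control, and the lowest library was control 2. The DDX39A to DDX39B read ratio was 1.34 ± 0.0958 after CTI-2 and 1.35 ± 0.0346 in controls, with overlapping groups (two-sided exact permutation p = 1).

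The DDX39B locus also carries the readthrough gene ATP6V1G2-DDX39B on the same strand, which shares its exons, so reads could be split between them. The readthrough gene was called as well, at 112 ± 3.17 CPM after CTI-2 and 87.5 ± 11.5 CPM in controls (SD, n = 3 each; log2 fold change 0.42, edgeR adjusted p = 0.017). The calls of DDX39A and DDX39B were each lost without 1 library: DDX39A was at an adjusted p of 0.070 when CTI-2 library 3 was left out, and DDX39B at 0.074 when CTI-2 library 1 was left out. With any library left out, the log2 fold change stayed at 0.40 to 0.49 for DDX39A and at 0.39 to 0.51 for DDX39B. DDX19A and DDX19B, a pair that releases mRNA at the nuclear pore, were not called (log2 fold changes of 0.30 and 0.14, edgeR adjusted p = 0.321 and 0.679). All 4 export genes had positive log2 fold changes, with a median of 0.37 against -0.01 over all tested genes. Their summed level was 455, 428 and 450.1 CPM in CTI-2 libraries 1 to 3, against 376, 314 and 347 CPM in controls 1 to 3, without overlap (two-sided exact permutation p = 0.1, the smallest possible). The group means of this sum differed by 98.9 CPM, of which DDX39A and DDX39B made up 93.7 CPM. The sum therefore mostly repeats the calls of DDX39A and DDX39B.

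**Figure D3:**
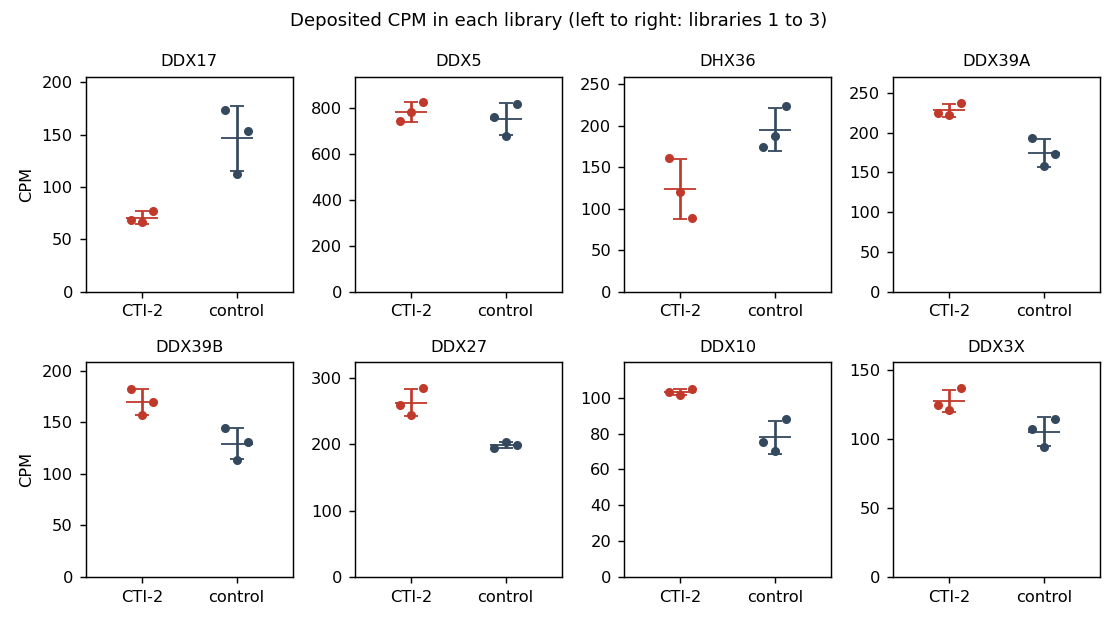
CPM of 8 helicase genes in each library (points, libraries 1 to 3 from left to right; line and bar, mean and SD), CTI-2 left and control right, each axis starting at 0. DDX17 lies at 66.4 to 77.4 CPM after CTI-2 and at 113 to 173 CPM in controls, while DDX5 overlaps between groups.

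Of the 16 ribosome biogenesis helicases, which clear or remodel duplexes in pre-ribosomal RNA, 2 rose, none fell and 14 were not called (12.5% called, against 8.03% of all tested genes). Their median log2 fold change was 0.07, with 9 positive and 7 negative values. DDX27 (ENSG00000124228, chromosome 20, 49219295 to 49244077, plus strand), needed for processing of the large subunit RNAs, had 259, 244 and 284 CPM in CTI-2 libraries 1 to 3, against 194, 203 and 199 CPM in controls 1 to 3. It was higher in every CTI-2 library than in any control (262 ± 20.2 CPM after CTI-2 and 199 ± 4.47 CPM in controls, SD, n = 3 each; log2 fold change 0.45, SE 0.11, edgeR adjusted p = 0.0084). ZNFX1, which overlaps it on the opposite strand, was at 0.08 on the log2 scale (adjusted p = 0.882).

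DDX10 (ENSG00000178105, chromosome 11, 108665025 to 108940930, plus strand), which acts on the small subunit, had 103, 102 and 105 CPM in CTI-2 libraries 1 to 3, against 75.1, 70.5 and 88.1 CPM in controls 1 to 3. The groups did not overlap (103 ± 1.65 CPM after CTI-2 and 77.9 ± 9.13 CPM in controls, SD, n = 3 each; log2 fold change 0.46, SE 0.12, edgeR adjusted p = 0.0099). Both calls were lost without CTI-2 library 3 (adjusted p = 0.095 for DDX27 and 0.054 for DDX10) and without control 1 (adjusted p = 0.064 for each). DDX27 and DDX10 have annotated transcripts of 2693 and 6707 bases, and DDX39A and DDX39B of 1471 and 2133 bases. All called higher genes had a median of 2039 bases, and all tested genes of 3368. The GC contents were 52.4% for DDX27, 40.2% for DDX10, 57.2% for DDX39A and 51.5% for DDX39B. Their medians were 46.2% for all called higher genes and 48.2% for all tested genes.

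DDX47, chosen for its place just past the threshold after its values were seen, acts early on the small subunit. It averaged 72.0 ± 4.88 CPM after CTI-2 and 56.6 ± 2.63 CPM in controls without overlap (SD, n = 3 each; log2 fold change 0.39, edgeR adjusted p = 0.052), and passed without control 2 (adjusted p = 0.019). It overlaps APOLD1 on the same strand, whose log2 fold change was 0.14 (adjusted p = 0.516).

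DDX21, which senses polymerase I transcription and aids RNA processing in the nucleolus, averaged 345 ± 26.8 CPM after CTI-2 and 308 ± 12.4 CPM in controls (SD, n = 3 each; log2 fold change 0.21, edgeR adjusted p = 0.230); without control 2 it passed (adjusted p = 0.048). Its relative DDX50 was at 0.25 on the log2 scale (adjusted p = 0.294). DDX18, DDX56, DDX31 and DHX37 lay between 0.02 and 0.17 on the log2 scale. DDX24, DDX55, DDX49, DHX33, DDX54, DDX52 and DDX51 lay between -0.37 and -0.05, the lowest being DDX51 with 1.81 to 4.04 CPM after CTI-2 and 2.98 to 4.62 CPM in controls. Over the 16 genes the summed level was 1721, 1651 and 1789 CPM in CTI-2 libraries 1 to 3, against 1625, 1529.7 and 1638 CPM in controls 1 to 3 (two-sided exact permutation p = 0.1, the smallest possible). This sum includes the called DDX27 and DDX10.

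None of the 9 splicing helicases was called by the quasi-likelihood test of edgeR, where 8.03% of all tested genes were called, and 0 by DESeq2 and by limma-voom. Among so few genes, 0 calls is near that share. In edgeR 2 had an unadjusted p under 0.05 (22.2%, against 23.9% of all tested genes). DDX46, which acts when the branch point is recognised, averaged 544 ± 44.6 CPM after CTI-2 and 582 ± 13.0 CPM in controls (SD, n = 3 each; log2 fold change -0.05, adjusted p = 0.838). DDX41 averaged 237 ± 10.9 CPM after CTI-2 and 225 ± 20.04 CPM in controls (log2 fold change 0.13, adjusted p = 0.474). DHX15, which takes the spent spliceosome apart, averaged 181 ± 17.8 CPM after CTI-2 and 180.1 ± 20.03 CPM in controls (log2 fold change 0.06, adjusted p = 0.786). DHX8, which releases the spliced mRNA, and DDX42, which associates with the SF3b complex, had log2 fold changes of 0.32 and -0.31 (adjusted p = 0.202 and 0.164). DHX16, DHX38, DDX23 and DHX35 lay between -0.20 and 0.22. The CPM of all 9 overlapped between the groups, where 28.8% of all tested genes did not overlap.

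**Figure D4:**
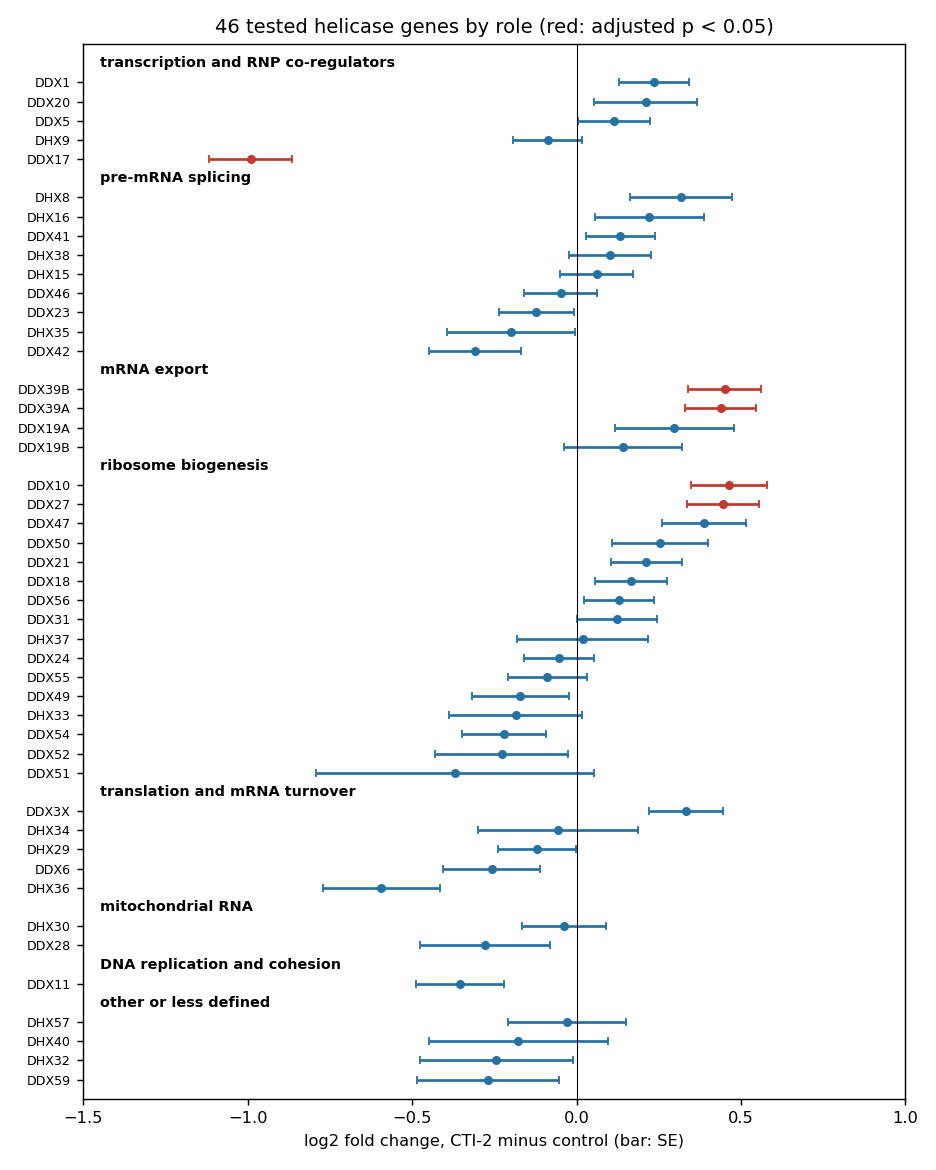
Log2 fold change, CTI-2 minus control, with its SE (bar) for the 46 tested helicase genes, grouped by role and coloured red where the adjusted p is under 0.05. DDX17 at -0.99 is the lowest value, and DDX39B, DDX39A, DDX10 and DDX27 are the red points above 0.

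In the role of translation and mRNA turnover, 2 genes lay close to the threshold. DHX36, which unwinds G-quadruplexes in RNA, had 162, 121 and 88.8 CPM in CTI-2 libraries 1 to 3, against 175, 187 and 224 CPM in controls 1 to 3. Every CTI-2 library lay below every control, but the CTI-2 libraries spread widely (124 ± 36.6 CPM after CTI-2 and 195 ± 25.7 CPM in controls, SD, n = 3 each; log2 fold change -0.59, SE 0.18, edgeR adjusted p = 0.064). Its call changed with the setting: DHX36 passed in 5 of 20 alternatives, among them DESeq2 (adjusted p = 0.022), without the low-count filter (adjusted p = 0.00016), without CTI-2 library 1 (adjusted p = 0.00014) and without control 1 (adjusted p = 0.035), and the adjusted p over all alternatives ran from 0.00014 to 0.321.

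DDX3X, which helps ribosomes through structured mRNA leaders, had 125, 121 and 137 CPM in CTI-2 libraries 1 to 3, against 107, 93.9 and 114 CPM in controls 1 to 3. Its groups did not overlap, with a log2 fold change of 0.33 (128 ± 8.07 CPM after CTI-2 and 105 ± 10.5 CPM in controls, SD, n = 3 each; SE 0.11, edgeR adjusted p = 0.057), and it passed when each library's trend with transcript length was removed (log2 fold change 0.41, adjusted p = 0.016). DDX6, the decapping and translational repression factor of P-bodies, averaged 33.4 ± 1.61 CPM after CTI-2 and 41.2 ± 3.87 CPM in controls (SD, n = 3 each; log2 fold change -0.26, adjusted p = 0.290), without overlap. DHX29, which assists scanning ribosomes, and DHX34, a factor of nonsense-mediated decay, had log2 fold changes of -0.12 and -0.06 (adjusted p = 0.570 and 0.917). None of the 5 was called in edgeR or limma-voom, and 1, DHX36, in DESeq2. In edgeR 8.03% of all tested genes were called, and 0 calls among 5 genes is near that share. Summed over the 5, CTI-2 libraries 1 to 3 had 413, 360 and 354 CPM. Controls 1 to 3 had 428, 420 and 483 CPM, without overlap between the groups (two-sided exact permutation p = 0.1, the smallest possible). This sum averaged 375 CPM after CTI-2 and 443 CPM in controls. DHX36, which it includes, averaged 124 CPM after CTI-2 and 195 CPM in controls, a larger difference than that of the sum. The sum therefore mostly repeats DHX36 and shows no joint fall of the other genes. In 4 of these 5 genes the groups did not overlap (all CTI-2 libraries lower in 3 and higher in 1), where 28.8% of all tested genes did not overlap, 15.6% with all lower and 13.2% with all higher.

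DDX11, a DNA helicase of sister chromatid cohesion, had 118, 133 and 141 CPM in CTI-2 libraries 1 to 3, against 184, 124 and 217 CPM in controls 1 to 3. Control 2 lay within the range of the CTI-2 libraries, and the log2 fold change of -0.35 did not pass (SE 0.13, edgeR adjusted p = 0.103). Without control 2 it was -0.53 and passed (adjusted p = 0.0019). The mitochondrial helicases DHX30 and DDX28, which help assemble the mitochondrial ribosome, averaged 64.6 ± 6.32 and 20.02 ± 5.71 CPM after CTI-2 and 68.5 ± 7.13 and 25.3 ± 4.55 CPM in controls (SD, n = 3 each; log2 fold changes -0.04 and -0.28, adjusted p = 0.895 and 0.413). DHX57, DHX40, DHX32 and DDX59, whose roles are less defined, lay between -0.27 and -0.03, with DHX57 at 22.1 ± 3.10 CPM after CTI-2 and 23.4 ± 1.51 CPM in controls and DDX59 at 12.7 ± 1.70 CPM after CTI-2 and 15.9 ± 2.41 CPM in controls.

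The 3 helicases of innate RNA sensing were below the count filter and were not tested. DDX58, the RIG-I sensor gene, had 11, 7 and 5 counts in CTI-2 libraries 1 to 3, against 6, 6 and 3 counts in controls 1 to 3. DDX60, an antiviral helicase, had 4, 3 and 2 counts after CTI-2, against 2, 12 and 4 counts in controls. DHX58, the LGP2 gene, had 0, 1 and 0 counts after CTI-2, against 0, 1 and 0 counts in controls, and the limit that 3 counts set in the 6 libraries is 0.763 to 1.36 CPM. In the fit without a filter DDX58 had a log2 fold change of 0.73 (SE 0.53, edgeR adjusted p = 0.533) and DDX60 of -0.82 (SE 0.64, adjusted p = 0.566), so that differences of this size were not detectable at this depth.

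Cofactors of the helicases were read from a list of partner proteins. Of 52 tested members 6 rose and 1 fell (13.5% called, against 8.03% of all tested genes), and the median log2 fold change was 0.12, against -0.01 over all. EIF4G1, the scaffold that activates the helicase eIF4A for cap-dependent initiation, had 213, 198 and 192 CPM in CTI-2 libraries 1 to 3, against 327, 266 and 354 CPM in controls 1 to 3 (log2 fold change -0.59 with SE 0.11; edgeR adjusted p = 0.00067). All CTI-2 libraries were below all controls. The exon junction complex genes MAGOHB and MAGOH, whose near-identical sequences could split reads, were at 238 ± 5.54 and 181 ± 10.7 CPM after CTI-2 and at 164 ± 13.7 and 129 ± 15.6 CPM in controls (SD, n = 3 each; log2 fold changes 0.58 and 0.53, edgeR adjusted p = 0.0011 and 0.0040). EIF4G1, MAGOHB and MAGOH passed whichever library was left out.

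The other 4 cofactors that rose were named after their values were seen. THOC7, THOC1 and SARNP, which join TREX or bind DDX39B, rose by 0.43, 0.43 and 0.35 on the log2 scale (edgeR adjusted p = 0.010, 0.028 and 0.047). GPATCH4, a nucleolar protein with a G-patch, the motif that activates DEAH box helicases, rose by 0.47 (adjusted p = 0.0054). The other THO subunits of the list, THOC2, THOC3, THOC5 and THOC6, were not called, with log2 fold changes of -0.13 to 0.18, and neither was the export adaptor ALYREF (log2 fold change 0.61, adjusted p = 0.087). The calls of THOC7, THOC1 and SARNP were lost when single libraries were left out (adjusted p up to 0.085, 0.179 and 0.179), and THOC1 and SARNP also missed in DESeq2 (adjusted p = 0.066 and 0.0504). Of 20 alternative settings, THOC1 lost its call in 11, SARNP in 12 and THOC7 in 4.

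Of 17 tested RNA helicases outside the naming rule, 0 passed in edgeR, DESeq2 or limma-voom (against 8.03% of all tested genes in edgeR), 1 had an unadjusted p under 0.05 (5.88%, against 23.9%), and the median log2 fold change was -0.11. YTHDC2, a helicase that reads methylated adenosine, averaged 8.33 ± 1.38 CPM after CTI-2 and 14.9 ± 4.34 CPM in controls (SD, n = 3 each; log2 fold change -0.74, adjusted p = 0.058), and passed without control 2 (adjusted p = 0.013). SKIV2L, the cytosolic exosome helicase, and EIF4A2 had log2 fold changes of -0.25 and -0.49 (adjusted p = 0.226 and 0.229). Without control 2, EIF4A2 was at -0.76 and passed (adjusted p = 0.034). EIF4A1, the initiation helicase, was among the genes with too few counts to be tested.

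The set of called helicases depended on single libraries. Leaving out each library gave 2 to 9 called helicases: without CTI-2 library 3 DDX17 and DDX39B were left, where 4.05% of all tested genes passed. Without control 2 there were 9, of which 7 were higher and 2 lower, where 16.1% of all tested genes passed; DDX1, DDX11, DDX21 and DDX47 joined the 5.

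**Figure D5:**
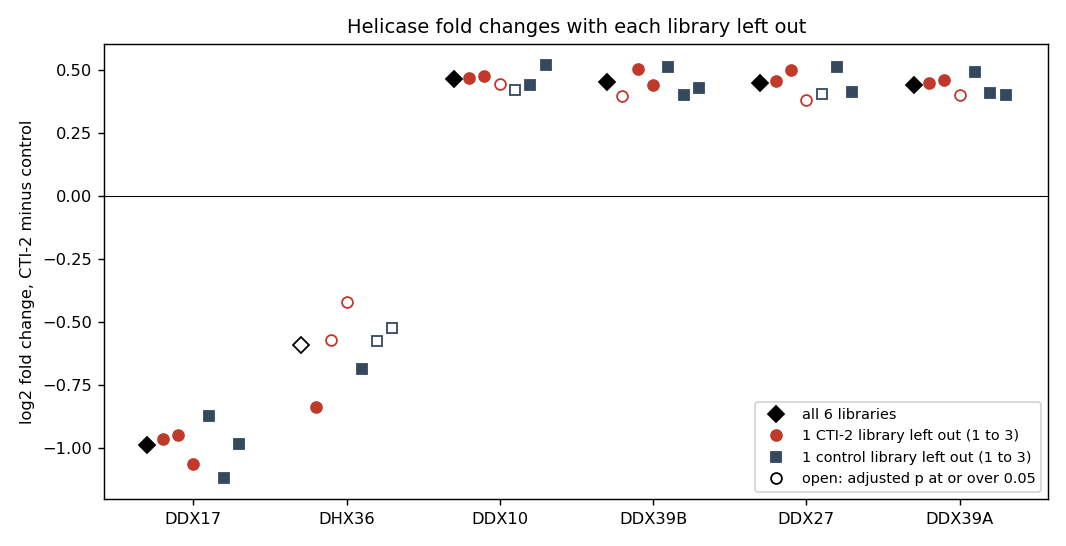
Log2 fold change, CTI-2 minus control, of 6 helicase genes with all libraries (diamond) and with each CTI-2 library (circles, 1 to 3) or control library (squares, 1 to 3) left out. Open symbols have an adjusted p at or over 0.05; DDX17 is filled throughout, between -1.12 and -0.88, and DHX36 runs from -0.84 to -0.42.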

How the data were processed

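For the 6 libraries the authors deposited a gene table of raw read counts and one of CPM; each CPM equals the count divided by its library total, times 1000000 (within 1e-09 for all 16362 genes). Per the labels, Trizol RNA went into an Oxford Nanopore cDNA-PCR kit. The submitters' processing notes name minimap2; of build, annotation, counter and strand, no source used here says anything. The reads carry no molecular identifiers, so floors cover counting error only.

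The filter filterByExpr left 9848 genes. They were fitted in edgeR 4.0.16 (R 4.3.3; TMM factors, robust glmQLFit, glmQLFTest) as CTI-2 minus control, with Benjamini-Hochberg adjustment over them all. SE came from the fold change and its F statistic. DESeq2 1.42.0 and limma 3.58.1 served as alternatives. Transcript lengths, spans and overlaps came from GENCODE 29; the deposited length equals end minus start in GENCODE for 36 of 49 helicases, and coordinates of genes are given only for those. By these spans 20 of the 49 overlap another counted gene and 10 have pseudogenes under their name, so their counts are uncertain. The called DDX39A, DDX39B and DDX10 are among those with pseudogenes. On counts simulated for CTI-2 minus control, with 9863 genes fitted, 47.8% of genes changed 1.5-fold, 80.0% of those changed 2-fold and 98.4% of those changed 4-fold were recovered, and 9 of 156 calls were false. Every simulated gene had the same spread (biological coefficient of variation 0.100), and no simulated library was set apart. Recovery and false calls in the real libraries may therefore differ.

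The helicases, roles and lists were chosen with earlier results of these data known. Named were called helicases, the 2 of highest CPM in each role, 9 chosen genes, helicases below the filter and the 3 lowest adjusted p of each list; other names were chosen after their values were seen. Libraries of a group differed by more than sampling noise (chi-square over its degrees of freedom, 1.68 to 6.03).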

Additional observations from a re-analysis of the deposited data

How the results depend on the processing

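DDX17 kept its direction and call in all 20 alternatives, and no named gene that was called in any setting changed sign. With 3 libraries a group, changes under 2-fold are often missed (47.8% of simulated 1.5-fold changes were recovered, with the same spread for every gene). The 5 helicase calls became 1 when tested against a fold change of 1.2 (DDX17), and leaving out a library gave 2 to 9. The count of all called genes (791, 57.8% lower) became 498 in DESeq2 (47.0% lower), 306 at an adjusted p of 0.01, 190 against a fold change of 1.2, and 399 to 1583 when a library was left out (1583 without control 2, 41.3% lower). The 7 calls in the cofactor and other helicase lists became 4 at an adjusted p of 0.01, 2 against a fold change of 1.2, and 4 to 15 when a library was left out. The median log2 fold change of the helicases (-0.03) became 0.032 with each library's GC trend removed, and lay between -0.08 and 0.032 in all alternatives; the cause was not tested. The difference in summed helicase CPM, CTI-2 minus control, was -0.156 and ranged from -203 to 151 when a library was left out. Thinning all libraries to 2208261 counts, added after seeing the data, also called DDX47 (adjusted p = 0.036). The labels do not say whether the replicate numbers pair the libraries. Same-numbered deviations correlated at -0.05, 0.0069 and -0.12, and differently numbered ones at -0.097 to 0.138. With 3 libraries a group these correlations show no pairing but cannot exclude it. With the number as a replicate block 942 genes and 6 helicases were called, DHX36 in addition (log2 fold change -0.62, adjusted p = 0.00028). Of 680 comparisons of a named gene with its alternatives, 625 kept their side of the threshold, 39 lost and 16 gained a call.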
